A study of Bubalus bubalis with 12 samples.

Results

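Genes for translation factors and for splicing proteins were examined in buffalo sperm for 2 histone modifications, H3K4me2 (dimethylated lysine 4 of histone H3) and H3K27me3 (trimethylated lysine 27). The genes were taken by symbol: every symbol on the array that begins with EIF1 to EIF6, EEF1, EEF2, SRSF, SF3A, SF3B, SNRP, HNRNP or PRPF and has at least 2 probes. Of 93 symbols with such a name, 74 had 2 or more probes, 33 of them in translation and 41 in splicing, out of 6805 genes measured in all. The other 19 symbols had 1 probe each.

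The samples were cryopreserved semen of 6 buffalo bulls (Bubalus bubalis), 3 described as high-fertile (HF2, HF3 and HF5) and 3 as subfertile (SF1, SF4 and SF5). Cross-linked sperm chromatin was cut with micrococcal nuclease and precipitated with an antibody to either mark, and the recovered DNA was amplified and hybridised against the bull's own input DNA, 1 array per bull and mark and 12 arrays in all. The question is whether either mark differs between the fertility groups. No treatment was given to either group, and breed, age and the measure of fertility are not given in the sources used here.

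Translation initiation factors bring the small ribosomal subunit, the initiator transfer RNA and the messenger RNA together, and elongation factors carry the ribosome along the message. The SNRP proteins are part of the small nuclear ribonucleoproteins of the spliceosome, SF3A and SF3B proteins belong to its U2 particle, PRPF proteins are mostly of its U4/U6.U5 and Prp19 parts, and SRSF and HNRNP proteins bind RNA and steer the choice of splice sites. In sperm most histones are replaced by protamines. The nucleosomes that stay are known to lie often at CpG-rich promoters, housekeeping genes among them, where H3K4me2 marks active or poised promoters, and H3K27me3, laid down by Polycomb, marks silent developmental genes.

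The probes are 60 bases long and were designed on cattle sequence, so a buffalo locus may differ from its probe. The 74 genes have 1340 of them, which by their names fall into 3 classes: CpG island (1173), promoter (135) and coding (32). The 7 below belong to the genes with the results described further on. Each is the probe of its gene whose 12 ratios lie closest to the gene's mean, save for SNRPB. Its 2 probes lie equally far from their mean, so the printed probe is not the closer. Letters run 5′ to 3′ as on the array, and capitals mark CpG dinucleotides, the sites of DNA methylation in CpG islands.
EIF3D: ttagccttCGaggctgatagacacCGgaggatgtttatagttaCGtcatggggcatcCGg
EEF1B2: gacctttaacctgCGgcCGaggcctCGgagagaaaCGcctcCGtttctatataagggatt
SNRPB: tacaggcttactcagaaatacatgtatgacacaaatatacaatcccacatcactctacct
SRSF1: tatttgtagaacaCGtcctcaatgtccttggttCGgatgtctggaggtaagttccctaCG
EIF2C2: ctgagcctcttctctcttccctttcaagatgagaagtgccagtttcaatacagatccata
EIF4A2: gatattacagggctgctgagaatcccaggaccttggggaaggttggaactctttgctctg
EIF4A3: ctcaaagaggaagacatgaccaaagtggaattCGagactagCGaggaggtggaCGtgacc

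In the cattle build HGSC Btau_3.1 used by the array, these probes lie at chr5:80567945-80568004 (EIF3D), chr2:99568652-99568711 (EEF1B2), chr13:53221982-53222041 (SNRPB), chr19:8032926-8032985 (SRSF1), chr14:2391440-2391499 (EIF2C2), chr1:82290925-82290984 (EIF4A2) and chr19:53985539-53985598 (EIF4A3). The SNRPB probe is of the promoter class and the other 6 are of the CpG island class. The printed probe of EEF1B2 holds 5 CpG dinucleotides, that of EIF3D 4, those of SRSF1 and EIF4A3 3 each, and those of SNRPB, EIF2C2 and EIF4A2 hold 0. Over all probes of the 74 genes the mean was 2.85 CpG per probe at 49.4% G and C, against 2.67 and 49.8% over the probes of all 6805 genes. Strand and exon structure were not used here.

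The number of probes per gene ran from 2 to 182, with a median of 12. HNRNPL (an RNA-binding splicing regulator) had 182 and EIF4A2 (an RNA helicase of the cap-binding complex) had 76, while EIF2C3, EEF2, SF3B14, SNRPB and SNRPC had 2 each. A gene's probes lie within a median span of 1287 bases, and where they overlap they are repeated readings of 1 stretch of chromatin. In some genes they are spread farther, over 42703 bases in EIF2C2 and 34582 in PRPF8. In either case they are read in the same bulls and are not separate replicates. For 16 of the 74 genes, a probe of another symbol lies within 1000 bases, as for EEF1B2 next to NDUFS1. Such neighbours may share fragments, whose length was not measured here.

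A gene's value is the mean over its probes of the log2 ratio of ChIP signal over input signal, with the median probe of each array at 0. A value of 1 thus means 2 times the ratio of the median probe. All 12 arrays were scanned on 1 day, and the 2 arrays of a bull lie on 1 slide, with HF5 and SF1 sharing a slide, so that bull and slide cannot be told apart otherwise. Input signal was well above background at 97.1% or more of probes on each array. The H3K4me2 arrays of HF5 and SF5 had the weakest ChIP signal, with 93.9% and 95.7% of probes well above background against at least 97.1% on each of the other 10 arrays. For these 74 genes, 132 of 8040 H3K4me2 spots and 44 of 8040 H3K27me3 spots were not well above background in the ChIP colour.

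The mean levels of both marks at the translation and splicing genes lay on either side of the median probe. Averaged over the 6 bulls, 34 of 74 lay above 0 for H3K4me2 (background 57.8% of all genes) and 26 of 74 for H3K27me3 (background 50.3%). The median of the 74 means was -0.04 for H3K4me2, against 0.06 over all genes, and -0.06 for H3K27me3, against 0.00. No gene passed an adjusted p of 0.05 for either mark by limma (0 of 74, background 0% of 6805 genes). At an unadjusted p under 0.05 there were 6 of 74 for H3K4me2 (background 4.44%), 3 of them above 0 and 3 below (background 1.81% and 2.63%). For H3K27me3 there were 5 of 74 (background 5.29%), 1 above 0 and 4 below (background 1.97% and 3.32%).

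The highest H3K4me2 means were those of EEF1B2 (a nucleotide exchange subunit of the elongation complex) at 1.00 ± 0.96 (SD, n = 6), EIF3K (a subunit of the initiation factor eIF3) at 0.79 ± 0.81, SRSF7 at 0.52 ± 0.41 and SNRPC (a U1 particle protein) at 0.50 ± 0.61. The lowest were EIF3B (a core subunit of eIF3) at -0.77 ± 0.89, EIF3L at -0.75 ± 0.95, SNRPB (an Sm core protein) at -0.63 ± 0.97 and PRPF38A at -0.61 ± 0.77. The SD over bulls was at least as large as the mean in EIF3K, SNRPC and all 4 of the low genes, and close to it in EEF1B2. A single sign in all 6 bulls was seen in 4 of 74 genes for H3K4me2 (background 3.59%): EIF3CL, EIF3K, EEF1A1 and SRSF7, all positive (background 2.01%, and 1.57% for all negative).

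For H3K27me3 the highest means were SRSF1 (an SR protein that activates splice sites) at 0.65 ± 0.84 and HNRNPK at 0.47 ± 0.66. EIF3K at 0.43 ± 0.27 and EIF4EBP1 (a repressor of translation initiation) at 0.37 ± 0.33 followed. The lowest were EIF3B at -0.74 ± 0.67, EIF3L at -0.71 ± 0.73, PRPF19 (the core ubiquitin ligase of the Prp19 complex) at -0.67 ± 0.47 and EIF4A3 (the helicase of the exon junction complex) at -0.54 ± 1.44. A single sign in all 6 bulls was seen in 3 of 74 (background 3.51%): EIF3K, positive (background 1.63%), and EIF3L and PRPF19, negative (background 1.88%). EIF3K was the one gene that was positive on all 12 arrays, from 0.06 in SF4 to 2.39 in HF5 for H3K4me2 and from 0.12 in HF2 to 0.81 in SF4 for H3K27me3. EIF3B lay below 0 on 10 of 12 arrays, the exceptions being SF4 at 0.64 for H3K4me2 and SF5 at 0.10 for H3K27me3. Both are subunits of the same factor, eIF3, whose 8 measured members thus ran from the lowest mean to nearly the highest.

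**Figure D1:**
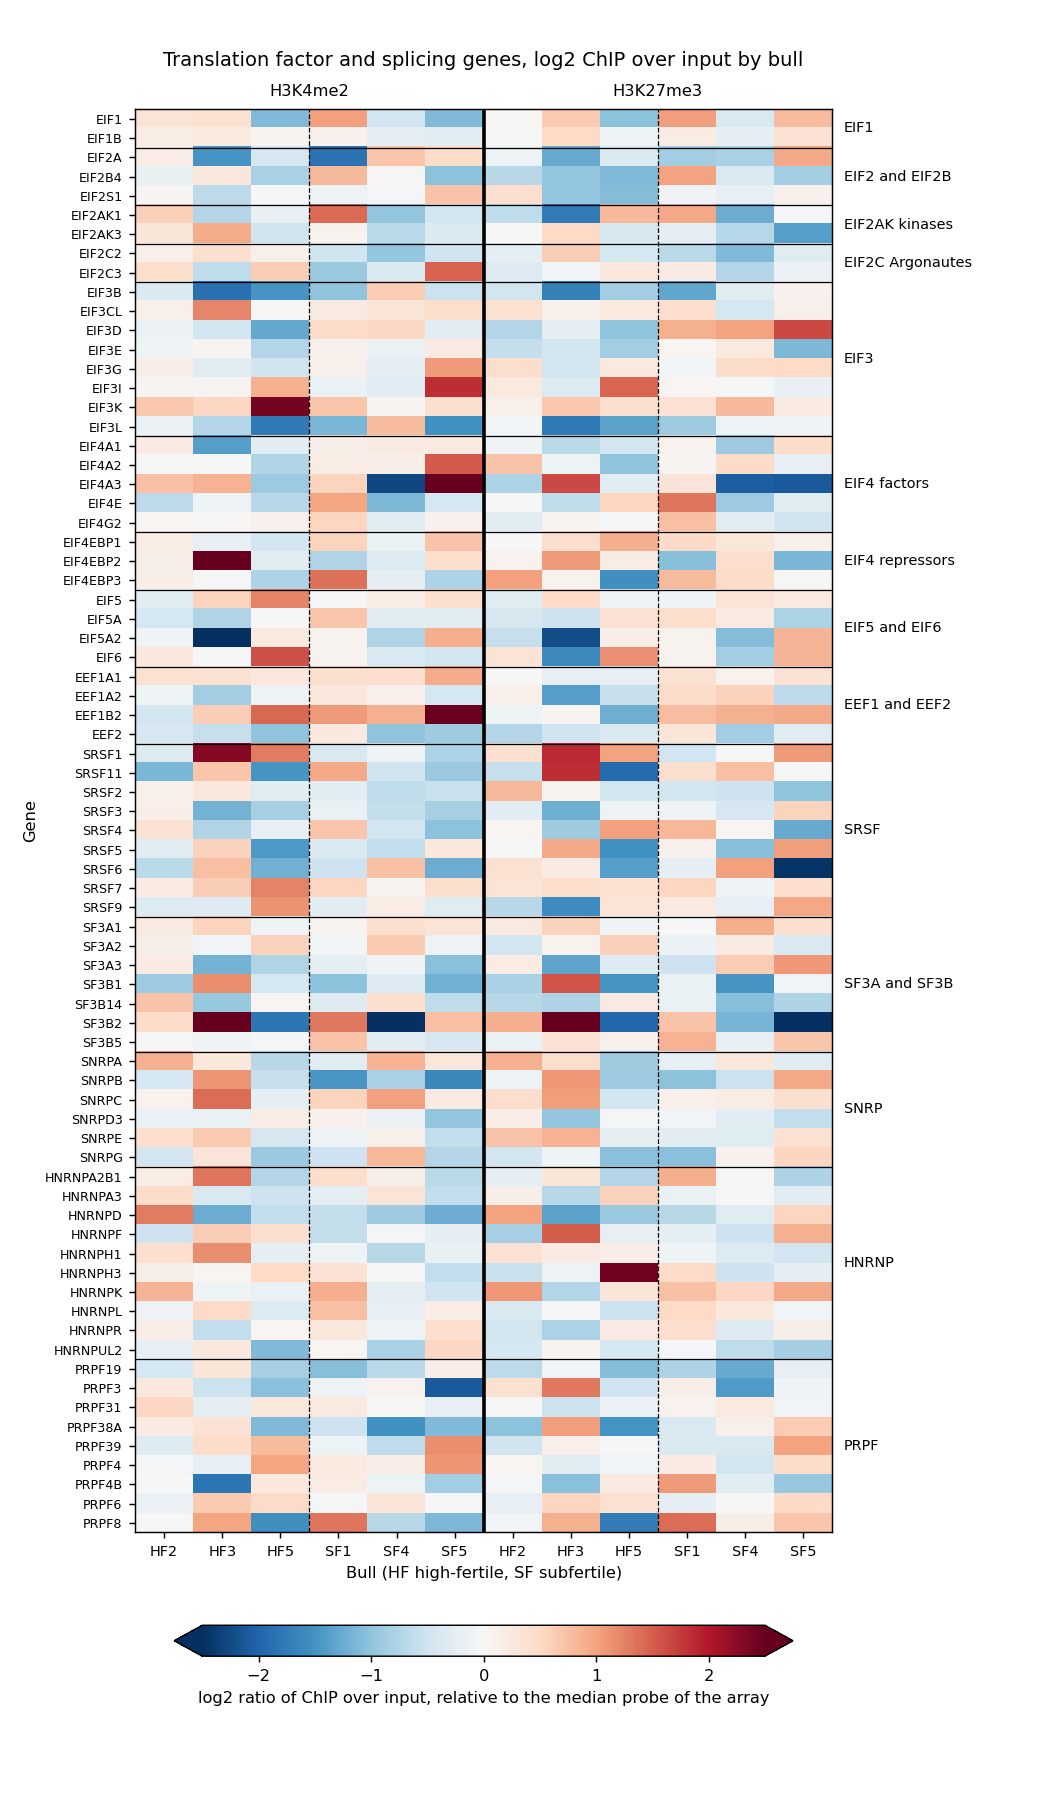
Log2 ratio of ChIP over input (colour, median probe of the array at 0, colours ending at -2.5 and 2.5) of the 74 genes in rows, by family, and the 6 bulls in columns, for H3K4me2 (left) and H3K27me3 (right). The colours of a gene differ between bulls of the same fertility group, and the same bull often has a like colour for both marks; EIF4A3 and SF3B2 have the widest ranges for H3K4me2.

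Bulls of 1 group differed from each other widely. EIF4A3 stood for H3K4me2 at 0.74 in HF2, 0.88 in HF3 and -0.90 in HF5, and at 0.57 in SF1, -2.27 in SF4 and 3.91 in SF5. SF3B2 (a U2 particle subunit) stood at 0.46, 2.64 and -1.81 in HF2, HF3 and HF5 and at 1.32, -2.73 and 0.76 in SF1, SF4 and SF5. EIF4A3 thus had both its extremes among the subfertile bulls, while SF3B2 was highest in HF3 and lowest in SF4. The median SD over the 6 bulls was 0.63 for H3K4me2 and 0.63 for H3K27me3, and the median SD over the probes of a gene within an array was 0.66 and 0.65. HNRNPL, with the most probes, stayed between -0.34 and 0.76 for H3K4me2 and between -0.54 and 0.50 for H3K27me3.

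Between the fertility groups, no translation or splicing gene passed the threshold for H3K4me2. By limma with Benjamini-Hochberg adjustment, 0 of 74 were called (background 0% of 6805 genes), and 2 of 74 had an unadjusted p under 0.05 (background 2.91%), both higher in the high-fertile bulls (background 1.69%, and 1.22% for lower). The groups did not overlap in 5 of 74 (background 6.58%): SNRPB, EIF2C2 and SRSF2 with every high-fertile bull above every subfertile one (background 3.48%), and EIF4A2 and EEF1A1 with every high-fertile bull below (background 3.1%). These shares are near those of all genes. The 95% confidence interval of a difference had a median half-width of 1.19 log2 units for H3K4me2 and 1.11 for H3K27me3 over the 74 genes. In a typical gene, a smaller difference could thus not be told from 0 even without adjustment. Larger differences missed the adjusted threshold too, and a p that misses the threshold does not show that the groups were alike.

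SNRPB encodes the Sm proteins B and B′, which sit in the ring around the small nuclear RNAs. Its H3K4me2 ratio was -0.44, 1.10 and -0.58 in the high-fertile bulls HF2, HF3 and HF5, against -1.45, -0.82 and -1.62 in the subfertile SF1, SF4 and SF5. HF3 was by far the highest, and the lowest high-fertile bull lay just above the highest subfertile bull. The group means were 0.03 ± 0.93 and -1.29 ± 0.42 (SD, n = 3 each). The difference, high-fertile minus subfertile, was 1.32 (95% CI 0.05 to 2.59, unadjusted p = 0.043, adjusted p = 1.00, limma), and without HF3 it was 0.79. SNRPB rests on 2 overlapping promoter probes, at -0.43 to 1.38 in the high-fertile and -2.12 to -1.15 in the subfertile bulls for the probe printed above, and at -0.81 to 0.82 and -1.29 to -0.48 for the other. Of its 12 H3K4me2 spots, 2 were not well above background in the ChIP colour.

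SRSF1 is the other gene with an unadjusted p under 0.05, from 25 probes. Its H3K4me2 ratio was 2.29 in HF3 and 1.30 in HF5, but -0.34 in HF2, against -0.38, -0.12 and -0.79 in SF1, SF4 and SF5. HF2 lay among the subfertile bulls, so the groups overlapped. The difference was 1.51 (95% CI 0.00 to 3.02, unadjusted p = 0.0496, adjusted p = 1.00, limma), and it was 0.91 without HF3.

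EIF2C2, the older symbol of an Argonaute gene that guides small RNAs to their targets and no subunit of eIF2, had H3K4me2 ratios of 0.12, 0.39 and 0.12 in HF2, HF3 and HF5 and of -0.51, -0.96 and -0.50 in SF1, SF4 and SF5. Both groups were tight in these gene means, and the difference was 0.87 (95% CI -0.05 to 1.79, unadjusted p = 0.062, limma). Single EIF2C2 probes ranged from -1.04 to 2.11 in their differences, 37 of 43 with the sign of the gene's own. At the printed EIF2C2 probe the groups overlapped, with HF5 at -0.72 and SF5 at 0.84. EIF4A2 stood at -0.01, -0.01 and -0.75 in HF2, HF3 and HF5 and at 0.19, 0.16 and 1.53 in SF1, SF4 and SF5, a difference of -0.89 (95% CI -2.07 to 0.30). HF5 and SF5, which had the weakest ChIP signal, lay farthest apart in EIF4A2, and the difference was -0.43 without SF5 and -0.19 without both. SRSF2 (another SR protein) differed by 0.54, with HF5 at -0.26 just above SF1 at -0.28. EEF1A1 (the factor that brings aminoacyl transfer RNA to the ribosome) differed by -0.24, all 6 bulls being positive, from 0.26 in HF5 to 0.92 in SF5, and by -0.07 without SF5. With the median over its 4 probes in place of the mean, the EEF1A1 difference turned to 0.17.

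No family held a gene past the adjusted threshold. Estimates were below 0 in all 3 EIF2 and EIF2B genes, all 5 EIF4 factors, all 4 EEF genes and 6 of 8 EIF3 subunits, and above 0 in 7 of 10 HNRNP and 6 of 9 PRPF genes. With ChIP signal over the mean input of the 6 bulls, the direction turned in several of these. Then 2 of 3 EIF2 and EIF2B genes, 3 of 4 EEF genes and 4 of 8 EIF3 subunits were above 0, beside 1 of 5 EIF4 factors. Of all 6805 genes, 3346 were above 0 over the mean input. Over the 33 translation genes, 10 estimates were above 0 and 23 below, with a median of -0.26. Over the 41 splicing genes, 25 were above and 16 below, with a median of 0.13, beside 48.2% of all genes above 0 and a median of -0.02. Genes of the same 6 bulls are not independent replicates. Each bull's median over the translation genes was 0.12, -0.01 and -0.26 in HF2, HF3 and HF5 and 0.19, -0.23 and 0.22 in SF1, SF4 and SF5. Over the splicing genes it was 0.13, 0.30 and -0.26, against -0.11, -0.13 and -0.56. The groups overlapped in both lists, and the means of these medians differed by -0.11 and 0.33. In the families other than SRSF, SNRP, EIF2C and EIF4, the member with the smallest p was EIF1B (0.30), EIF2S1 (-0.37), EIF2AK3 (0.57), EIF3D (-0.87), EIF4EBP2 (1.11), EIF6 (0.88), EEF1B2 (-0.94), SF3B1 (0.78), HNRNPH1 (0.78) and PRPF38A (0.87), each value being the difference in log2 ratio, with unadjusted p from 0.108 to 0.468 by limma. Several of these values rest on 1 bull. Without HF3 the difference was 0.17 in EIF4EBP2, 0.17 in SF3B1, 0.43 in HNRNPH1, 0.22 in EIF2AK3 and -0.15 in EIF2S1. Without HF5 it was 0.38 in EIF6, -0.54 in EIF3D, 0.94 in EIF2AK3, 1.68 in EIF4EBP2 and 1.34 in PRPF38A. Without HF2 it was -0.44 in EEF1B2 and 1.21 in SF3B1, and without SF5 -0.44 in EEF1B2 and -0.10 in EIF2S1.

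For H3K27me3 too, no gene passed the threshold by limma (0 of 74 at an adjusted p under 0.05, background 0%). At an unadjusted p under 0.05 there were 2 of 74 (background 4.07%), EIF3D and EEF1B2, both lower in the high-fertile bulls (background 1.84%, and 2.23% for higher). The groups did not overlap in 4 of 74 (background 8.57%): EIF3D, EEF1B2 and EEF1A1 with the high-fertile bulls lower (background 4.01%), and HNRNPH1 with them higher (background 4.56%). Estimates were above 0 in 9 of 33 translation genes, with a median of -0.25, and in 22 of 41 splicing genes, with a median of 0.10, beside 50.7% of all genes and a median of 0.01. The bulls' medians over the translation genes were -0.06, -0.22 and -0.28 in HF2, HF3 and HF5 and 0.20, -0.24 and 0.03 in SF1, SF4 and SF5. Over the splicing genes they were -0.03, 0.12 and -0.21, against -0.07, -0.21 and 0.16. The groups overlapped in both lists, and the means of these medians differed by -0.18 and 0.003.

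EIF3D encodes the eIF3 subunit that can itself bind the cap of some messages. For H3K27me3 the high-fertile bulls HF2, HF3 and HF5 stood at -0.73, -0.22 and -1.01, and the subfertile bulls SF1, SF4 and SF5 at 0.89, 1.01 and 1.65. The gap between the nearest bulls of the 2 groups, HF3 and SF1, was wider than the range within either group. The group means were -0.65 ± 0.40 and 1.18 ± 0.41 (SD, n = 3 each). The difference was -1.84 (95% CI -2.78 to -0.90, unadjusted p = 0.0019, adjusted p = 1.00, limma), it was -1.91 between HF5 and SF1 on their shared slide, and it ran from -2.05 to -1.61 when single bulls were left out. For H3K4me2 the same gene stood at -0.14, -0.45 and -1.29 in HF2, HF3 and HF5 and at 0.48, 0.51 and -0.28 in SF1, SF4 and SF5, which overlap.

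The 38 EIF3D probes tile chr5:80567871-80568182, 34 of them in the CpG island class and 4 in the promoter class, in 2 stretches with a gap between. In the first stretch, of 31 probes up to 80568074, all high-fertile bulls lay below all subfertile bulls at 29 probes for H3K27me3. In the second, of 7 probes from 80568103 on, this held at 1 probe, since SF4 averaged -0.28 and HF2 -0.04 there. How many of all array probes separate the groups in this way was not counted. Of 37 EIF3D probes with values on all 12 arrays, 24 had an unadjusted p under 0.05 for H3K27me3 and 0 an adjusted p under 0.05 (limma over 175796 probes, background 4.31% and 0%). The probes overlap by most of their length, so these are not 24 separate readings.

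**Figure D2:**
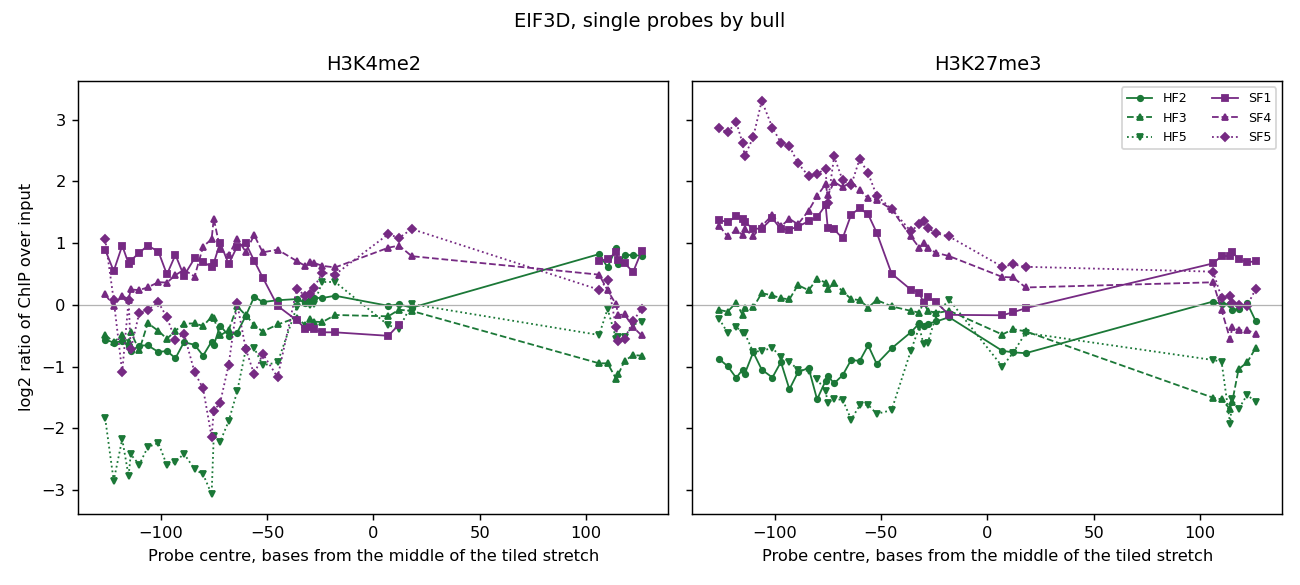
Log2 ratio of ChIP over input (vertical axis) of each of the 38 EIF3D probes against the distance of the probe's centre from the middle of the tiled stretch in bases, for H3K4me2 (left) and H3K27me3 (right), 1 line per bull (green high-fertile, purple subfertile). For H3K27me3 the green and purple lines are apart at the left and cross in the 7 probes at the right; for H3K4me2 they are mixed.

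EEF1B2 had H3K27me3 ratios of -0.12 in HF2, 0.06 in HF3 and -1.22 in HF5, against 0.78, 0.90 and 0.95 in SF1, SF4 and SF5. The subfertile bulls lay close together, with a mean of 0.88 ± 0.09 (SD, n = 3), and HF5 far below, the high-fertile mean being -0.43 ± 0.69. The difference was -1.30 (95% CI -2.31 to -0.29, unadjusted p = 0.018, adjusted p = 1.00, limma), and -0.90 without HF5. Its 9 probes ranged from -3.43 to 0.57 in their differences, 6 of them with the sign of the gene's own. HNRNPH1 (an RNA-binding protein of G-rich splicing elements) stood at 0.38, 0.20 and 0.17 in HF2, HF3 and HF5 and at -0.10, -0.35 and -0.48 in SF1, SF4 and SF5, a difference of 0.56 (95% CI -0.24 to 1.36). EEF1A1 differed by -0.40, and 1 of its 4 probes had the sign of that difference, and the median over probes gave 0.012.

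In the other families the member with the smallest p for H3K27me3 was EIF1 (-0.60), EIF2B4 (-0.86), EIF2AK3 (0.80), EIF2C2 (0.68), EIF4A3 (1.47), EIF4EBP2 (1.04), EIF5A2 (-0.83), SRSF2 (0.81), SF3A3 (-0.89), SNRPE (0.51) and PRPF8 (-1.05), each value being the difference in log2 ratio, with unadjusted p from 0.087 to 0.321 by limma. Here too single bulls carried much of a value. Without HF3 the difference was 0.75 in EIF4A3, -0.16 in EIF5A2, 0.37 in EIF2C2, -0.48 in SF3A3, 0.30 in SNRPE, -0.99 in EIF1 and -1.66 in PRPF8. Without HF5 it was -0.33 in PRPF8, -0.14 in EIF1, 0.85 in SNRPE and -1.34 in EIF5A2, and without HF2 0.48 in SRSF2. Without SF1 it was -0.32 in EIF2B4, -0.32 in EIF1, 2.27 in EIF4A3 and -1.35 in SF3A3. Without SF4 it was -1.03 in EIF1 and -1.34 in EIF5A2, and without SF5 0.50 in EIF2AK3, -0.39 in EIF5A2 and -0.55 in SF3A3. In PRPF8, the large scaffold protein at the spliceosome's core, the values of HF5 (-1.75) and SF1 (1.39), the 2 bulls that share a slide, were the extremes. The EIF1 estimate turned to 0.0080 without HF5 and SF5. EIF2AK3, the PERK kinase that blocks initiation under stress, had differences of 0.57 for H3K4me2 and 0.80 for H3K27me3, neither past the test. Both marks share its input, which was lower in every high-fertile than in every subfertile bull, by a mean difference of -0.43, and over the mean input the differences were 0.20 and 0.41.

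The input signal, which is the denominator of every ratio, also differed between bulls at these genes. In log2 input relative to the array median, averaged over the 2 arrays of a bull, 0 of 74 genes passed an adjusted p of 0.05 by limma (background 0%), 4 of 74 had an unadjusted p under 0.05 (background 3.54%) and in 9 of 74 the groups did not overlap (background 7.77%). Of the 4, EIF2AK1 and EIF3D were higher in the high-fertile bulls (background 1.37%) and EIF4EBP2 and SNRPB lower (background 2.17%). Of the 9, 4 were higher (background 3.17%) and 5 lower (background 4.6%), beside an input estimate above 0 in 37 of 74 (background 44%). EIF3D input was -0.09, 0.58 and 0.51 in HF2, HF3 and HF5 and -0.92, -0.28 and -1.59 in SF1, SF4 and SF5, a difference of 1.26 (95% CI 0.36 to 2.17, unadjusted p = 0.012, limma). SNRPB input was -1.17, -2.62 and -2.06 in HF2, HF3 and HF5 and -0.66, -0.26 and -0.96 in SF1, SF4 and SF5, a difference of -1.32 (95% CI -2.27 to -0.38, unadjusted p = 0.012, limma). In both genes the groups did not overlap in the input, and the input difference ran against the ratio's.

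The same opposition held for most of the 74. The input difference had the sign opposite to the ratio's in 56 of 74 genes for H3K4me2 and in 54 for H3K27me3, beside 72.2% and 71.3% of all genes, as a ratio shares its denominator with the input. With ChIP signal set over the mean input of the 6 bulls in place of each bull's own, the EIF3D difference for H3K27me3 was -0.55, that of EEF1B2 -0.28, and for H3K4me2 that of SNRPB was 0.07, of SRSF1 0.62 and of EIF2C2 0.04. The EIF4A2 difference, whose input differed by -0.09, was -0.93 and kept its separation. Of the 5 genes whose groups did not overlap for H3K4me2, EIF4A2 alone remained so, and of the 4 for H3K27me3, 0 did. How many of all genes stay apart under both denominators was not counted, so these losses are not set against a background. Which denominator comes closer to the amount of each mark was not tested.

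**Figure D3:**
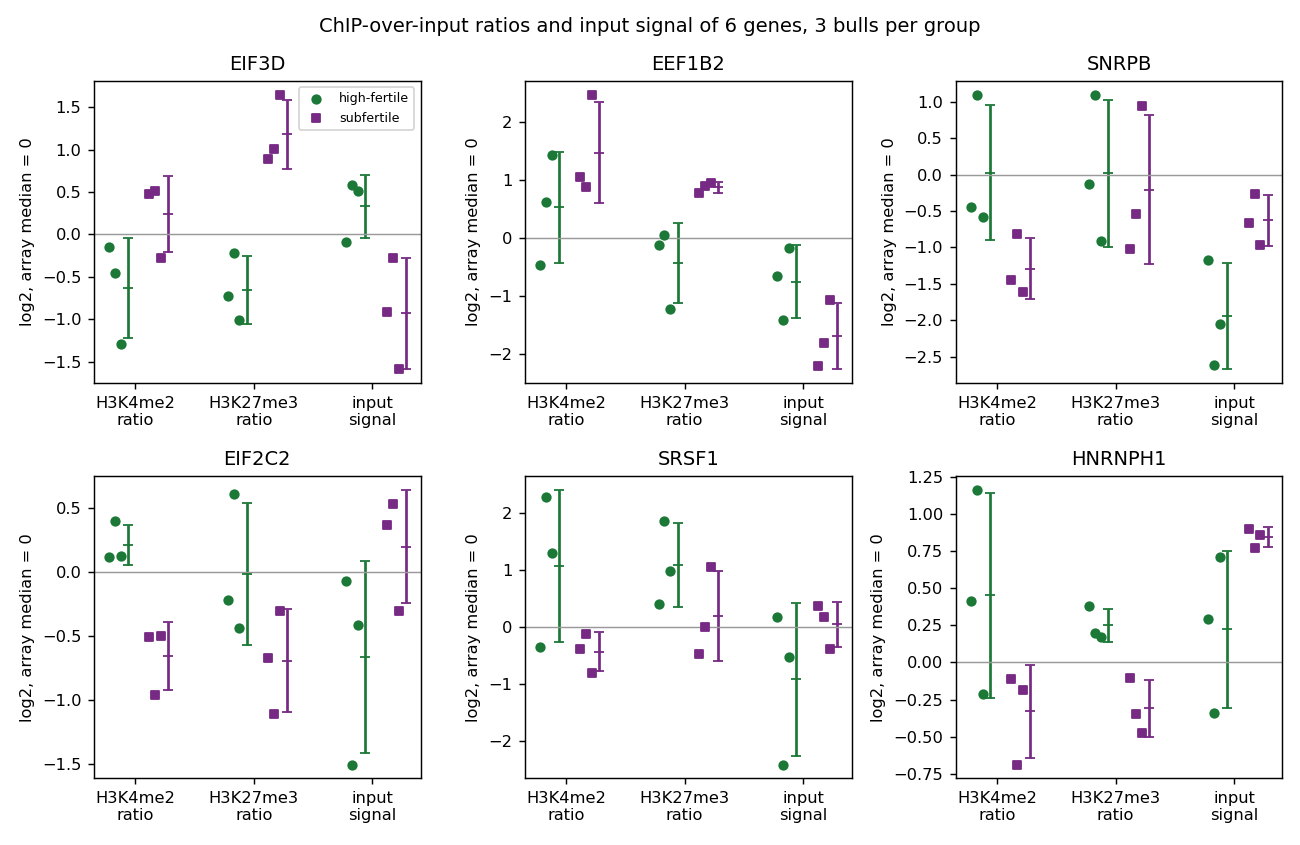
Log2 values (vertical axes, array median at 0) of 6 genes: the H3K4me2 and H3K27me3 ratios of ChIP over input and the input signal, each point 1 bull (green circles high-fertile, purple squares subfertile), with the mean and SD of 3 bulls beside them. In EIF3D the H3K27me3 ratio of the high-fertile bulls is lower and their input is higher, and in SNRPB the H3K4me2 ratio is higher and the input lower.

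Over the mean input, 2 of 74 genes had an unadjusted p under 0.05 for H3K4me2 (background 1.81%) and 3 of 74 for H3K27me3 (background 4.16%) by limma. The groups did not overlap in 4 of 74 for H3K4me2 (background 6.76%), namely EIF4A2, EIF6, PRPF19 and PRPF31, and in 4 of 74 for H3K27me3 (background 8.55%), namely EIF2AK1, HNRNPD, HNRNPL and PRPF38A. EIF6, which keeps the ribosomal subunits apart, differed by 1.14 (unadjusted p = 0.016, limma) for H3K4me2, against 0.88 over each bull's own input. EIF2AK1, the haem-regulated eIF2 kinase, differed by 1.44 for H3K4me2 and 1.08 for H3K27me3 over the mean input (unadjusted p = 0.021 and 0.018, limma), but by -0.10 and -0.43 over its own. Its input was higher in the high-fertile bulls by 1.47. The sign of the difference turned with the denominator in 24 of 74 genes for H3K4me2 and in 18 for H3K27me3. How many of all genes turned in sign was not counted. Of the translation genes, 19 of 33 then lay above 0 for H3K4me2 and 13 of 33 for H3K27me3, in place of 10 and 9. Of all 6805 genes, 3346 and 3517 lay above 0 over the mean input, in place of 3282 and 3451.

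**Figure D4:**
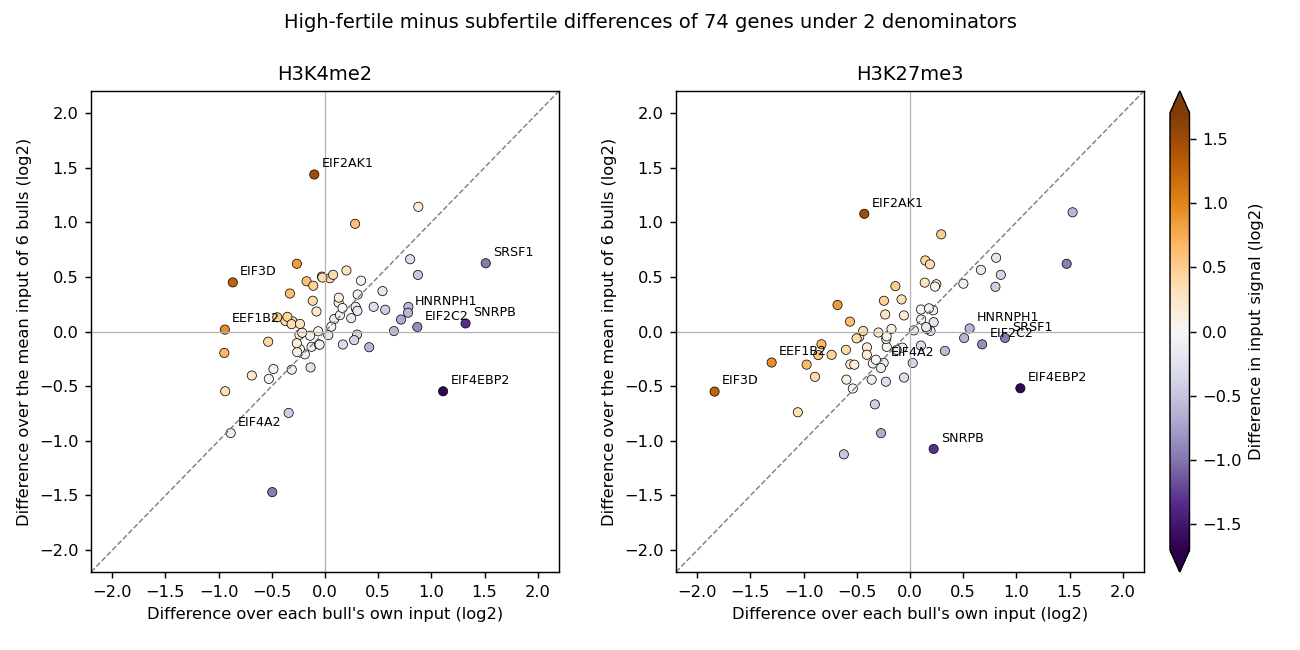
Difference between high-fertile and subfertile bulls in log2 ratio over each bull's own input (horizontal axis) against the difference over the mean input of the 6 bulls (vertical axis), 1 point per gene, 74 genes, for H3K4me2 (left) and H3K27me3 (right), coloured by the difference in input. Genes with high input in the high-fertile bulls (orange) lie above the dashed line of equality and those with low input (purple) below it; EIF4A2 lies close to the line for H3K4me2.

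Comparing the marks, no gene differed past the threshold between H3K4me2 and H3K27me3 by limma (0 of 74 at an adjusted p under 0.05, background 0%, and 0 at an unadjusted p under 0.05, background 0.602%, with 0.323% positive and 0.279% negative). The fit behind these counts treated the 12 arrays as independent, though both marks came from the same 6 bulls. With the bull as a replicate block, EEF1A1 and EEF1B2 came under an unadjusted p of 0.05, beside 4.1% of all genes. Their unadjusted p by limma were 0.024 and 0.036, both at an adjusted p of 0.94. The means of H3K4me2 were above those of H3K27me3 in 43 of 74 (background 59.8%). EIF4A3 had the largest difference, 1.03, which was 6.01 in SF5 and between -0.77 and 1.51 in the other 5 bulls. EEF1B2 followed at 0.78, then SF3B14 at 0.42 and EIF4EBP2 at 0.41. At the other end stood PRPF3 at -0.55, SNRPB at -0.54, SRSF11 at -0.49 and SF3A3 at -0.47. Only EEF1A1 had 1 sign in all 6 bulls (1 of 74, background 3.54%, with 2.44% positive and 1.1% negative), its H3K4me2 ratio being above that of H3K27me3 by 0.03 to 0.59.

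Whether the fertility difference itself differed between the marks was tested as an interaction, with 0 of 74 past an adjusted or an unadjusted p of 0.05 by limma (background 0% and 0.661%, the latter 0.367% positive and 0.294% negative). The estimate was above 0 in 45 of 74 (background 47.8%). The smallest p were those of PRPF38A, whose difference was 0.87 for H3K4me2 and -0.62 for H3K27me3 (unadjusted p = 0.124 by limma), then EIF3D, SRSF9 and EIF3K, with interactions of 0.97, 1.25 and 0.86. The interaction fit, too, left out the pairing of the marks by bull. With the bull as a block, PRPF38A and SRSF9 came under an unadjusted p of 0.05, beside 3.94% of all genes. Their unadjusted p by limma were 0.033 and 0.031, both at an adjusted p of 0.97.

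Within 5 of the 6 bulls, the 2 marks ran together across these genes, as they did across the whole array. The correlation of the H3K4me2 ratio with the H3K27me3 ratio over the 74 genes was 0.44, 0.80 and 0.63 in the high-fertile bulls HF2, HF3 and HF5 and 0.86 in SF1 and 0.51 in SF4, but -0.07 in SF5. Over all 6805 genes it was 0.65, 0.80, 0.44, 0.86, 0.40 and 0.25 in the same order. Between arrays of different bulls and different marks it had a median of 0.06 over 30 pairs of arrays, from -0.27 to 0.30, for the 74 genes. Both marks of a bull share its input DNA and slide, and over the mean input the 6 values for the 74 genes were 0.28, 0.18, 0.56, 0.44, 0.32 and -0.07. HF3 had the largest drop, from 0.80 to 0.18, and in that bull the ratio ran against the input, with r = -0.73 and -0.76 for the 2 marks. Genes are not independent replicates, and these correlations are a description with no test.

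**Figure D5:**
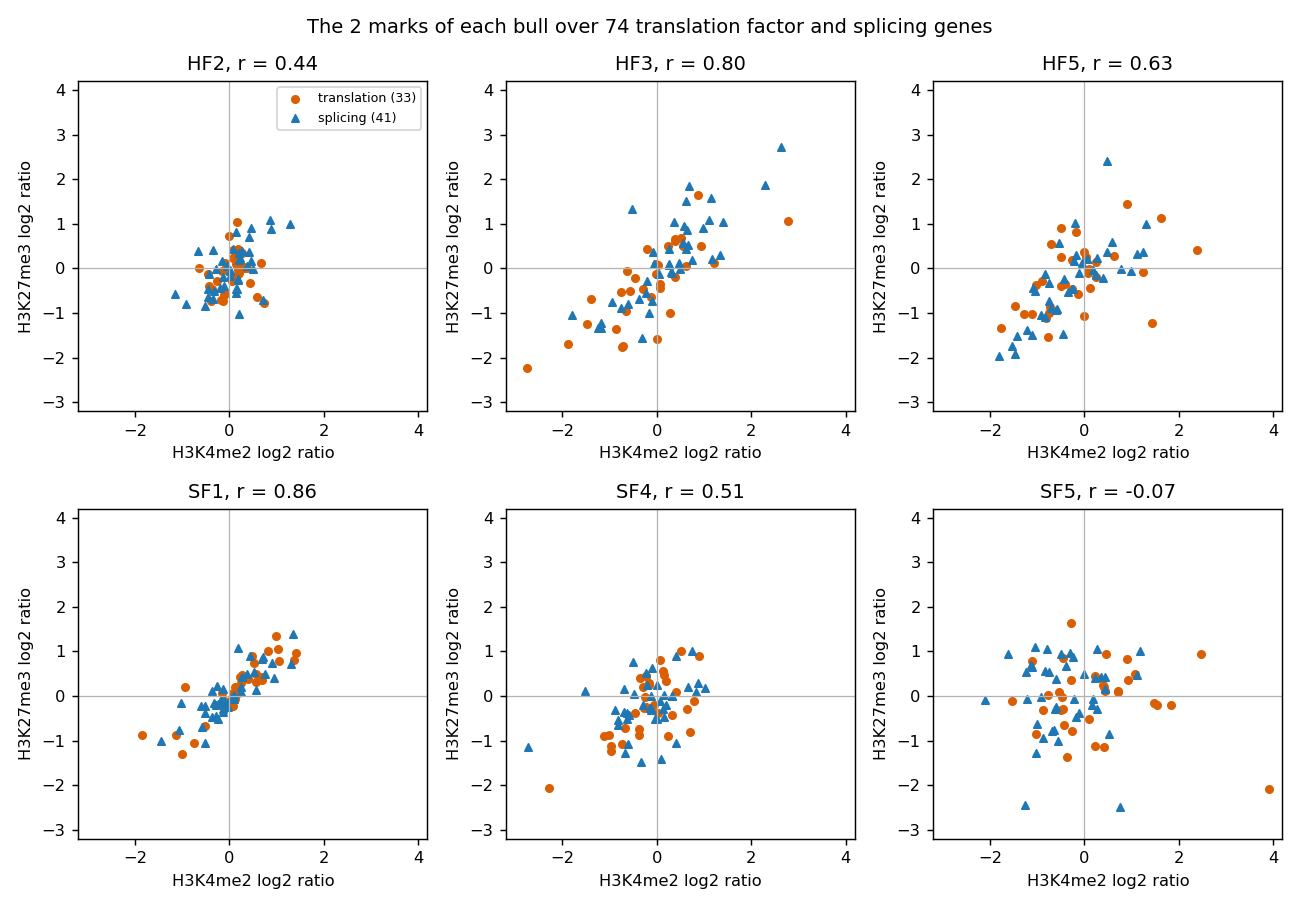
H3K27me3 log2 ratio (vertical axis) against H3K4me2 log2 ratio (horizontal axis), array median at 0, 1 panel per bull and 1 point per gene (orange circles 33 translation genes, blue triangles 41 splicing genes). The points follow a rising line in SF1 (r = 0.86) and HF3 (r = 0.80) and form a cloud in SF5 (r = -0.07), where EIF4A3 is the point at the far right.

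Letters of known promoter motifs were counted in the probes on both strands, as a description. CCGGAAG, the core bound by ETS factors, was in a probe of 7 of 74 genes (9.46%, against 5.69% of all genes): EIF2A, EIF2AK3, EIF3D, EIF3G, EIF3K, SRSF2 and SNRPG. GCATGCG, of NRF1, was in 4 (5.41%, against 1.69%): EIF3E, EIF5A, HNRNPH1 and PRPF3. GGGCGG, of SP1, was in 15 (20.3%, against 13.4%), CCAAT in 25 (33.8%, against 27.8%), ATGGCGG, of YY1, in 2 (2.70%, against 2.98%) and CTCGCGA, of BANP, in 2 (2.70%, against 2.31%). The 74 genes had a median of 12 probes and all genes 8, which gives the former more sequence to hold a match. Per probe, ETS was in 1.87% (probes of all genes 1.12%), NRF1 in 1.34% (0.275%), SP1 in 4.40% (2.54%) and CCAAT in 9.78% (8.74%). YY1 and BANP were in 0.597% each (0.631% and 0.528%). Whether the number of probes accounts for the gene shares was not tested. In EIF3D, 10 of the 38 overlapping probes hold CCGGAAG.

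Other genes of the same processes were taken from a fixed list. Of 43 other translation genes, aminoacyl transfer RNA synthetases and release factors among those listed, 26 were measured, and of 96 other splicing genes, 49. By limma, 0 of these passed an adjusted p of 0.05 in either mark. At an unadjusted p under 0.05 there were 0 of 26 and 1 of 49 for H3K4me2 (background 2.91% of all genes), and 1 of 26 and 3 of 49 for H3K27me3 (background 4.07%). The smallest p belonged to CWC25 for H3K4me2 (-1.75, unadjusted p = 0.011, limma) and to LSM5, a ring protein of the U6 particle, for H3K27me3 (-1.50, unadjusted p = 0.017, limma). DDX39B (0.96) and SART1 (-1.15) came next for the 2 marks. Among the translation genes the 2 of smallest p were NARS (-0.67) and ABCE1 (0.83) for H3K4me2, and IARS (-0.90) and MTIF2 (0.89) for H3K27me3.

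Marker genes of cells that semen can hold were listed beside these, though a mark at a locus is not expression. Of 7 sperm markers 2 were measured (TNP1 and ODF1), of 9 leukocyte markers 4, of 7 epithelial markers 5 and of 8 somatic testis markers 3. By limma, 0 of these passed an adjusted p of 0.05 for either mark. At an unadjusted p under 0.05 there was 1, HSD3B1 for H3K4me2, lower by 1.49 in the high-fertile bulls. Of all genes, 2.91% had such a p for H3K4me2 and 4.07% for H3K27me3. The median H3K4me2 ratio of the somatic testis markers ran from -0.54 to 0.03 in the high-fertile and from 0.10 to 0.28 in the subfertile bulls, and that of the leukocyte markers from -0.38 to 0.08 and from 0.09 to 0.60. These medians rest on few genes, which did not all run in 1 direction. Estimates were above 0 in 1 of 3 somatic testis markers and in 2 of 4 leukocyte markers, the latter with a median difference of -0.08. How often medians of so few genes separate the groups was not tested. The medians of the sperm and epithelial markers for H3K4me2, and of all 4 lists for H3K27me3, overlapped between the groups. Their part in the values of the translation and splicing genes was not tested.

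The 19 symbols with 1 probe, among them EIF2D, EIF3J, HNRNPA1 and SF3B3, had single values from -3.49 to 2.87. Their fertility differences ran from -1.52 to 0.98 for H3K4me2 and from -2.18 to 0.84 for H3K27me3, and were not tested as genes. The 5 genes with 2 probes ran from -0.19 to 1.32 for H3K4me2, the highest being SNRPB, and from -0.25 to 0.25 for H3K27me3, the highest being SF3B14.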

How the data were processed

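Values came from 12 two-colour Agilent arrays, ChIP in Cy5 and input in Cy3 with no dye swap, per the labels. The deposited intensity values, with the log10 ratio and flags of each spot, come from Agilent Feature Extraction 10.7 in the submitters' processing notes (10.7.3.1 per the file headers), with background subtracted and dyes normalized. The deposited value table of log2 ratios, with unstated correction, served as an alternative; its columns correlated with the scanner ratios at r from 0.740 to 0.994 and had medians from -0.13 to 0.10. The number of arrays limits the precision. The p-values rest on the spread between these bulls, with each gene's variance drawn by limma toward that of all genes. In the fits over both marks without a block, the p-values rest on the spread between arrays in the same way.

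From 177440 non-control probes, 177372 passed a filter that asked for input well above background in 6 or more of the 12 arrays; spots marked as outliers were left out. Log2 ratios were centred on each array's median and averaged over at least 2 probes, giving 6805 genes. Groups were compared with limma 3.58.1 in R 4.3.3 (lmFit, eBayes, two-sided), with Benjamini-Hochberg adjustment over all genes at 0.05, 3 bulls against 3. The script was tested on simulated data. Both marks of a bull carry its name in the labels, which pairs them: deviations from the group means correlated at 0.317 to 0.747 and those of the input at 0.949 to 0.984. Number 5 in the 2 groups names different bulls.

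The members and lists were chosen with earlier results of these data known. Named were, per comparison, the gene of smallest p in each family and those whose groups did not overlap, the 4 highest and 4 lowest levels and mark differences, and the 4 smallest interaction p; EIF3D, SRSF1 and genes with most or fewest probes could be named in any case, other pathway genes by the 2 smallest p, and EIF2AK1, SF3B2 and the genes listed for 1 sign, motifs or the mean input were named after their values were seen. Of the 74, 70 had their symbol in the buffalo RefSeq table NDDB_SH_1; EIF2C2, EIF2C3, EIF3CL and SF3B14 keep the array's names.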

Additional observations from a re-analysis of the deposited data

Results flagged for a closer look

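In 16 cases 1 bull stood apart from the other 5 of the same mark, its gap to the nearest of them divided by the whole range, being over Dixon's 95% critical value for 6 values. Chance gives this in about 1 in 20 groups. It was seen in 11 of 74 genes for H3K4me2 (background 7.61% of all genes) and in 5 of 74 for H3K27me3 (background 5.5%).

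Among translation genes for H3K4me2, HF3 stood apart at 1.22 in EIF3CL, at -1.39 in EIF4A1 and at 2.77 in EIF4EBP2. In EIF4EBP2, a repressor of translation initiation, the other bulls lay between -0.75 and 0.43. HF5 stood apart at 2.39 in EIF3K, whose other bulls lay between 0.06 and 0.70, and at 1.62 in EIF6. SF5 stood apart at 0.92 in EEF1A1.

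Among splicing genes for H3K4me2, HNRNPD was at 1.29 in HF2 and between -1.25 and -0.59 in the others. SRSF9 was at 1.12 in HF5, SF3B1 (the U2 subunit that contacts the branch point) at 1.16 in HF3, SF3B5 at 0.70 in SF1 and SNRPD3 at -0.99 in SF5.

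For H3K27me3, HNRNPH3 was at 2.40 in HF5 with the other bulls between -0.56 and 0.49, and EIF3I at 1.45 in HF5. EIF2B4, of the exchange factor of eIF2, was at 1.01 in SF1. SF4 stood apart at -0.43 in EIF3CL and at -0.12 in SRSF7. Of the 16, 5 fall on HF5 and 4 on HF3.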

How the results depend on the processing

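The count of genes past the adjusted threshold was 0 in every comparison and under each alternative that was run, for genes and for probes, with the lowest adjusted p of any gene at 0.802 for the H3K4me2 difference (without HF5) and 0.167 for the H3K27me3 difference (normexp background) by limma. With bull as a replicate block in the fits over both marks (correlation 0.568) and with slide as a random block (0.483), the count was also 0, with 2 of 74 genes at an unadjusted p under 0.05 for the mark comparison under either block (all genes 4.1% and 2.85%). The slide block could not be fitted in the fits on 6 arrays, where 1 slide holds 2 bulls. Among the differences of named genes under the alternatives, 480 kept their sign and side of the threshold and 11 turned. Over the mean input, those were for H3K4me2 EIF1B (-0.028), EIF2S1 (0.10), EIF3D (0.45), EIF4EBP2 (-0.55) and EEF1B2 (0.017), and for H3K27me3 EIF2C2 (-0.12), EIF4EBP2 (-0.52) and SNRPE (-0.060). With the median over probes, EEF1A1 turned to 0.17 for H3K4me2 and 0.012 for H3K27me3, and without HF5 and SF5 EIF1 turned to 0.0080 for H3K27me3. Leaving out single bulls, the difference between the groups in the mean of the bulls' medians over the 74 genes ran from 0.01 to 0.21 for H3K4me2 and from -0.15 to 0.02 for H3K27me3. Genes at an unadjusted p under 0.05, out of 74 and with the share of all genes under the same setting in brackets, numbered for H3K4me2 0 without HF3 (2.97%), SF1 (2.94%) or SF5 (2.92%) and with normexp (2.97%), and 1 without SF4 (3.29%). For H3K27me3 they numbered 5 without HF3 (4.82%), 4 without HF5 (4.98%) or SF1 (3.84%), and 3 without HF2 (5.75%), SF4 (3.56%) or SF5 (3.64%). For the levels, the mean input gave 13 for H3K4me2 (10.4%) and 13 for H3K27me3 (11.1%), leaving out HF5 gave 2 (3.84%) and 2 (5.42%), SF5 gave 3 for H3K4me2 (3.54%) and SF4 2 for H3K27me3 (4.31%). For the input, 9 were left without HF2 (5.89%). Genes whose groups did not overlap numbered 2 (7.42%) for H3K4me2 and 7 (8.04%) for H3K27me3 after within-array loess, and 3 (7.3%) and 7 (8.88%) with normexp. The causes were not tested.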
